A study of Mus musculus with 30 samples.

Results

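The TRIM family of ubiquitin ligases was examined in bulk RNA sequencing of a pair of mouse tumor cell lines exposed to interferons or to a STING agonist. Members were the genes whose mouse symbol is Trim followed by a number, with or without a letter, and that had at least 10 reads over all 24 libraries. Of 68 such symbols in the count tables, 61 qualified, among 21138 qualifying genes of 49315 counted. The other 7, Trim42, Trim43a, Trim43b, Trim43c, Trim52, Trim60 and Trim61, fell below the minimum, 4 of them without a single read. The 61 were not all well expressed: 44 reached a mean of 1 CPM (reads scaled to a common library size, with TMM factors over the 24 libraries) in at least 1 group, and 17 did not.

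The libraries came from B16F10, a melanoma line (B16 in the sample labels), and 6694c2, a pancreatic ductal adenocarcinoma (PDAC) line (C2 in the labels). By the study's methods, 6694c2 came from tumors of female mice carrying a floxed p53 allele, Pdx-cre, which acts in the pancreatic lineage, and a YFP reporter. Both lines are labelled C57BL/6, and the label for tissue reads tumor although the cells were cultured. Cells of each line were cultured for 24 h with vehicle, with 100 ng/mL of IFNγ, with 1000 U/mL of IFNβ or with 225 µg/mL of a STING agonist, which gave 8 groups of 3 libraries. Nothing states that the 3 libraries of a group were separate cultures, so p-values measure only the spread between these libraries. Each tumor type is represented by 1 line.

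Most TRIM proteins carry a RING finger that transfers ubiquitin, a B-box and a coiled coil, followed by a C-terminal domain that binds the target. Some, TRIM14 among them, lack the RING finger. Several members act inside the interferon system. TRIM21 binds antibody-coated particles in the cytosol, TRIM25 ubiquitinates the RNA sensor RIG-I, and TRIM5 of primates binds retroviral capsids. TRIM14, TRIM26 and TRIM56 adjust signalling by nucleic acid sensors. Others lie outside it, among them the chromatin co-repressor TRIM28 and the muscle ligase TRIM63. Interferon type I signals through the factor complex ISGF3, which binds the interferon-stimulated response element (ISRE), and IFNγ through factors that bind the gamma-activated site (GAS).

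The depth was 15543131 to 32266795 reads on genes per library, with a median of 22643586. The 9 melanocyte markers summed to 15350 to 19460 CPM in B16F10 libraries and 19.0 to 136 CPM in 6694c2 libraries, and the 10 epithelial markers to 12860 to 15180 CPM in 6694c2 and 14.1 to 136 CPM in B16F10. Transcripts specific to the other line were thus found at a low level, which moved with treatment. For 186 genes at 50 CPM or more in 6694c2 vehicle libraries and under 2% of that in B16F10, the median share of their 6694c2 level was 0.19% to 0.259% in B16F10 vehicle libraries and 0.95% to 1.18% with STING agonist. For 128 genes chosen the same way for B16F10, it was 0.513% to 0.59% in 6694c2 vehicle libraries, 0.28% to 0.868% with IFNγ and 0.218% to 0.306% with STING agonist. Of the T-cell markers, Cd3d, Cd3e, Cd4 and Cd8a had under 10 reads in all, Cd3g had no group mean above 0.0713 CPM, Trac was at 3.24 to 5.26 CPM in the 6694c2 groups and at most 0.0659 CPM in B16F10, and Lat was at 1.42 to 2.30 CPM in the B16F10 groups and at most 0.102 CPM in 6694c2. The 7 B-cell markers summed to 59.1 to 67.7 CPM in 6694c2 with IFNβ against 27.1 to 35.0 CPM with vehicle, and this followed Pax5, which was at 35.3 against 1.33 CPM, while Igkc was at 5.65 against 5.03 CPM. In B16F10 the same markers summed to 31.4 to 41.8 CPM with IFNγ against 12.82 to 26.95 CPM with vehicle, and 3 of the 7 rose, Igkc by log2 1.23, Cd79a by 0.82 and Ighm by 0.80. With IFNβ in B16F10 the sum was 19.4 to 33.9 CPM, and Igkc and Ighm rose by log2 0.71 and 0.59. The part of these markers in the TRIM results was not tested.

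The promoters of the members that rose most are shown first, because many carry the same short element. RefSeq promoter windows (GRCm38.p6, 250 bases before to 50 after the start site) were matched for 48 of the 61 members. They were searched on both strands for the ISRE core, GAAA then any 2 bases then GAAA, and for the GAS core, TTC then any 3 bases then GAA. On the opposite strand the ISRE core reads TTTC, any 2 bases, TTTC, and the GAS core reads the same. The ISRE core was in the windows of 9 members, Trim2, Trim5, Trim12a, Trim12c, Trim21, Trim26, Trim30a, Trim30d and Trim34a. The GAS core was in those of 6 others, Trim15, Trim30c, Trim31, Trim38, Trim45 and Trim46. No member held both. Among the 15 members with a window that rose over 2-fold with an interferon in at least 1 line, 8 held the ISRE core (53.3%), against 1 of the other 33 members (3.03%). For comparison, 15.4% of the 806 genes of all kinds that rose over 2-fold and had a window held it, as did 3.8% of all 13232 qualifying genes with a window. The GAS core was in 13.3% of the same 15 members, in 14.1% of the 806 genes and in 8.51% of the 13232 genes. These are matches of letters in a fixed window and not sites of binding. Of the 8 members with the ISRE core among the 15, 6 are related genes that lie next to each other on chromosome 7. Some of the 6 have the same bases around the core, so the 8 are not independent cases and the shares overstate the contrast. No match was found in the windows of Trim25, Trim56, Trim6, Trim10 and Trim40, which says only that these letters are not there.

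The 30 bases around the ISRE core are given for 8 members, since these are the members whose responses the results turn on. They are printed 5′ to 3′ along the gene's own strand, with the core in capitals. The stretch of Trim2, which also held the core, is not printed.
Trim5, chr7:104288136-104288165, - strand, core 49 bases upstream: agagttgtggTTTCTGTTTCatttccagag
Trim12a, chr7:104315466-104315495, - strand, core 10 bases downstream: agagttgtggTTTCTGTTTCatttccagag
Trim12c, chr7:104353359-104353388, - strand, core 29 bases upstream: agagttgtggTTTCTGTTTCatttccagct
Trim30a, chr7:104465210-104465239, - strand, core 36 bases upstream: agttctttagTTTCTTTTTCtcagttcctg
Trim30d, chr7:104507871-104507900, - strand, core 41 bases upstream: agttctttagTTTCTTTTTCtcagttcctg
Trim34a, chr7:104244457-104244486, + strand, core 10 bases downstream: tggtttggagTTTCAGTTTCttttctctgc
Trim21, chr7:102565447-102565476, - strand, first core 13 bases downstream: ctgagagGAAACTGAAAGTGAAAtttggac
Trim26, chr17:36836979-36837008, + strand, first core 160 bases upstream: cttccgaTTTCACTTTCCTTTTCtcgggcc
The stretches of Trim5 and Trim12a were the same at all 30 bases, and that of Trim12c matched them at 28 of 30. The stretches of Trim30a and Trim30d were also the same at all 30. In Trim21 and Trim26, a pair of overlapping cores made a run of 3 GAAA repeats, read on one strand or the other.

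With vehicle, the family was led by the same genes in both lines when levels were set per length (RPKM, the CPM divided by the length in kb). Trim28, the co-repressor that silences endogenous retroviruses with KRAB zinc finger proteins, was first at 97.1 ± 2.9 RPKM in B16F10 and 104 ± 5.8 RPKM in 6694c2 (SD, n = 3), which was 29.7% and 26.5% of the summed RPKM of the members. Trim35 was second at 42.8 ± 2.1 and 46.7 ± 1.0 RPKM. The third place differed, with Trim44 at 26.3 ± 0.94 RPKM in B16F10 and Trim59 at 42.3 ± 1.0 RPKM in 6694c2. Trim25 was 10th in B16F10 and 8th in 6694c2, at 6.4 ± 0.22 and 12.5 ± 0.64 RPKM. Trim30a was 18th and 34th, at 5.0 ± 0.56 and 0.24 ± 0.057 RPKM, and Trim21 was 21st and 28th, at 2.96 ± 0.26 and 0.463 ± 0.083 RPKM.

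Treatments were compared with vehicle within each line with the quasi-likelihood F test of edgeR, with p-values adjusted by Benjamini-Hochberg over all 21138 genes, and a member rose or fell where its adjusted p was under 0.05. In B16F10, IFNγ raised 14 members and lowered 7, where 12% of all genes rose and 10.8% fell. IFNβ raised 19 and lowered 4 in B16F10, where 12.7% of all genes rose and 11.2% fell. In 6694c2, IFNγ raised 15 members and lowered 2, with 7.89% of all genes up and 5.66% down. IFNβ raised 17 and lowered 5 in 6694c2, with 10.4% up and 7.86% down. As shares of the 61 members, the rises were 23%, 31.1%, 24.6% and 27.9% in that order, all above the share of all genes that rose, and the falls were 11.5%, 6.56%, 3.28% and 8.2%. The median log2 fold change of the members stayed between 0.0 and 0.24 in these 4 comparisons, beside 0.0 to 0.02 for all genes. In bulk libraries, fewer responding cells and less RNA per cell cannot be told apart. The comparisons within a line share their vehicle libraries. In the 4 interferon comparisons, 10 members rose each time, Trim5, Trim12a, Trim12c, Trim14, Trim21, Trim25, Trim26, Trim30a, Trim34a and Trim56, and 6 of them over 2-fold each time, Trim5, Trim12a, Trim12c, Trim21, Trim25 and Trim34a. No member fell in all 4. Across the 6 comparisons with vehicle, STING agonist included, 22 members passed in none. The shares of all genes with these joint patterns were not counted, so these numbers of members have no background beside them.

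**Figure D1:**
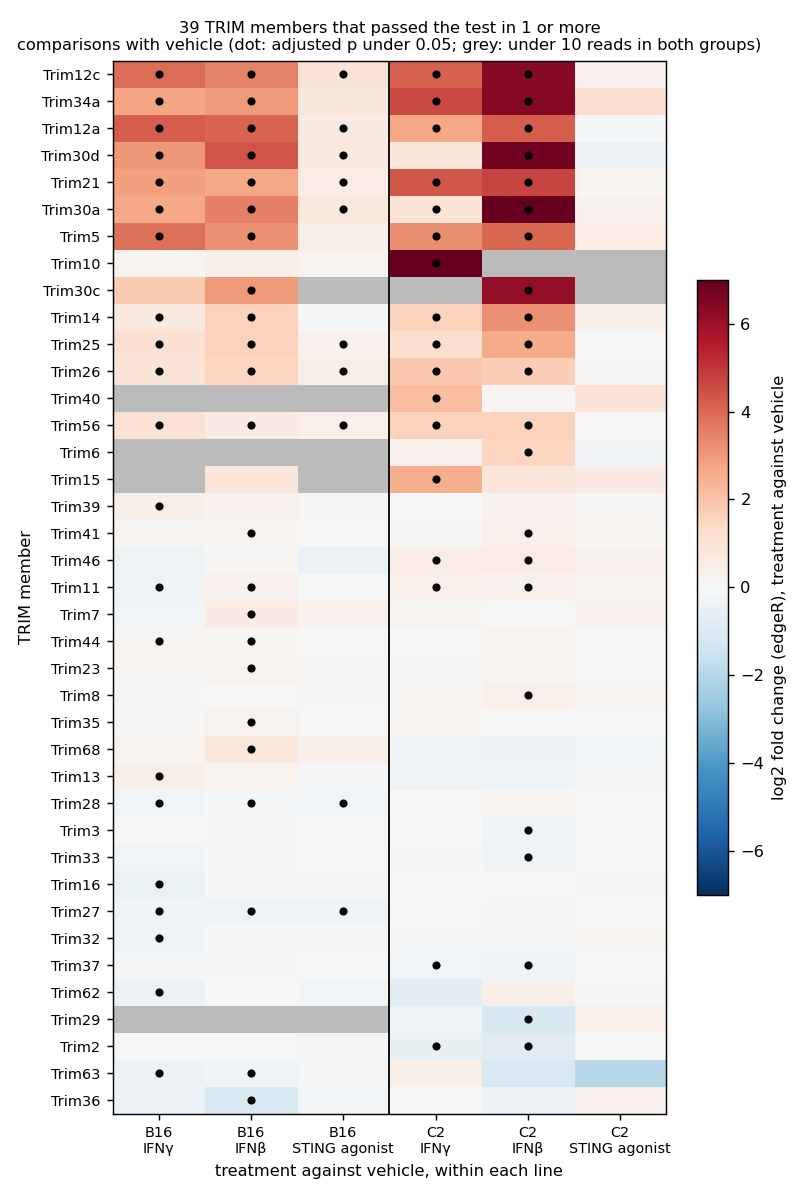
Log2 fold changes of the 39 TRIM members that passed the test in 1 or more of the 6 comparisons with vehicle (columns: treatment and line, B16 for B16F10 and C2 for 6694c2; colour: log2 fold change, saturating at 7 in either direction; black dots: adjusted p under 0.05; grey: under 10 reads in both groups). Many of the upper rows rise with both interferons in both lines. Exceptions are Trim30d, without a dot for IFNγ in C2, Trim30c, without a dot for IFNγ in either line, and Trim10, with a dot only for IFNγ in C2. Trim30a and Trim30d are dark with IFNβ in C2 and pale with IFNγ, and the C2 column for STING agonist has no dots.

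Relatives of Trim5 and Trim30a lie next to each other on chromosome 7. Trim6, Trim34a, Trim5, Trim12a, Trim34b, Trim12c, Trim30b, Trim30c, Trim30a and Trim30d lie in this order between positions 104218793 and 104507849 (GRCm38). IFNβ raised 7 of the 10 in B16F10 and 8 in 6694c2, with median log2 fold changes of 3.10 and 5.51. IFNγ raised 6 and 5, with medians of 2.72 and 1.83. Of all genes, 12.7% rose in B16F10 and 10.4% in 6694c2 with IFNβ, and 12% and 7.89% with IFNγ. The medians of all genes were 0.0 to 0.02. None of the 10 fell with an interferon. Trim34b and Trim30b did not pass in any comparison with vehicle, and their highest group means were 0.147 and 0.238 CPM. The summed level of the 10 went from 31.8 ± 2.8 CPM with vehicle to 288 ± 15 CPM with IFNγ and 398 ± 22 CPM with IFNβ in B16F10. In 6694c2 it went from 5.97 ± 0.87 CPM to 38.5 ± 2.4 and 293 ± 15 CPM. As a share of all reads on the 61 members, the 10 went from 2.11% ± 0.18 to 15.5% ± 0.65 and 19.1% ± 1.1 in B16F10, and from 0.339% ± 0.043 to 1.89% ± 0.16 and 11.4% ± 0.98 in 6694c2. Near-identical copies limit the split between neighbours: of the distinct 100-base words in its transcripts, Trim34a shares 21% with Trim34b, Trim5 shares 6.64% with Trim12c and 3.09% with Trim12a, and Trim30a shares 4.41% with Trim30d.

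**Figure D2:**
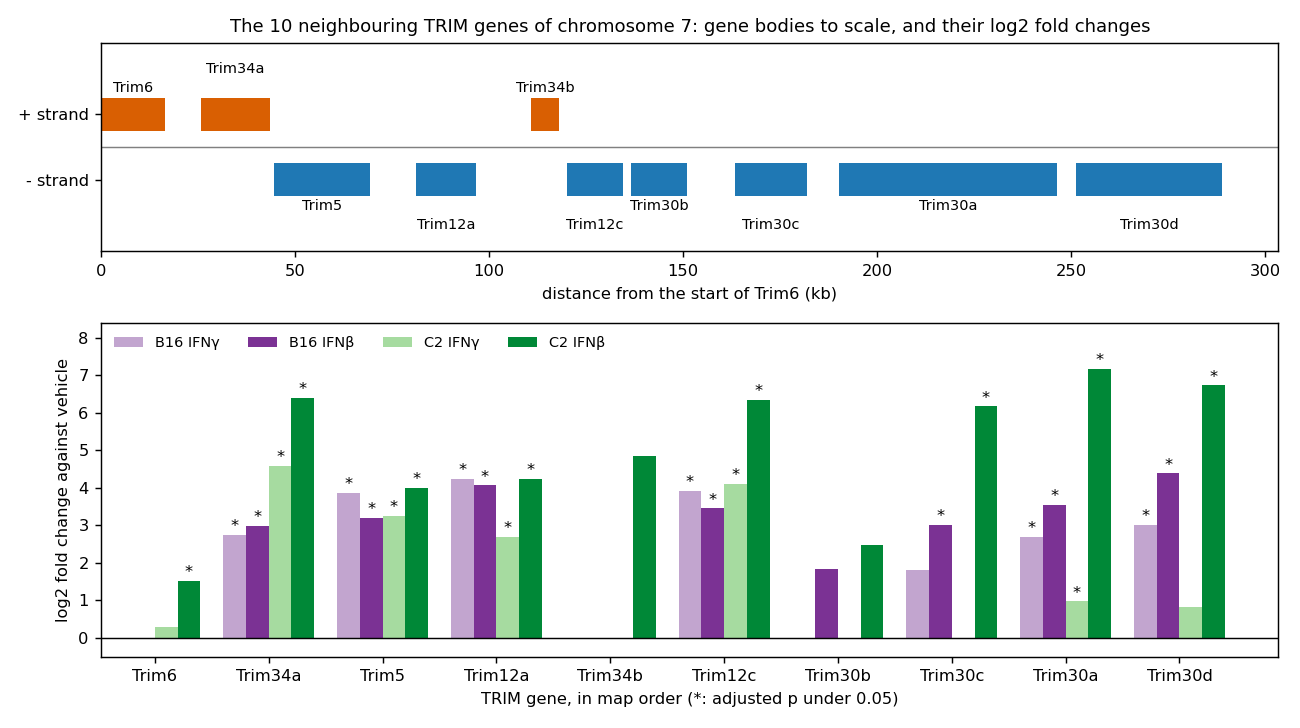
Top, gene bodies of the 10 neighbouring TRIM genes of chromosome 7 by distance from the start of Trim6 in kb, on the + strand (orange) or - strand (blue). Bottom, their log2 fold changes against vehicle with each interferon (B16, B16F10; C2, 6694c2; asterisk, adjusted p under 0.05; no bar where both groups had under 10 reads): the bars of IFNβ in C2 reach 7.16 for Trim30a, 6.73 for Trim30d and 6.35 for Trim12c.

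Trim30a, which restrains TLR-driven NF-κB signalling by removing TAB adaptors, responded differently to the interferons in the 2 lines. In B16F10 its libraries were at 18.3, 20.5 and 22.9 CPM with vehicle, 131, 142 and 126 CPM with IFNγ, and 257, 238 and 228 CPM with IFNβ. In 6694c2 they were at 0.759, 1.23 and 0.975 CPM with vehicle, 1.72, 2.39 and 1.80 CPM with IFNγ, and 145, 138 and 135 CPM with IFNβ. The groups did not overlap in either line, and with IFNβ the mean of 6694c2 was 139 ± 5.0 CPM against 241 ± 15 CPM in B16F10. In B16F10 the log2 fold changes were 2.69 ± 0.068 (SE) with IFNγ (adjusted p = 3.8e-139) and 3.55 ± 0.068 with IFNβ (adjusted p = 4.08e-179). In 6694c2 they were 0.98 ± 0.23 with IFNγ (adjusted p = 0.00155) and 7.16 ± 0.13 with IFNβ (adjusted p = 2.77e-36). The IFNγ change of 6694c2 was small in reads, 51 over the vehicle libraries and 123 over the IFNγ libraries. The share of B16F10 transcripts in these IFNγ libraries was 0.577%, 0.868% and 0.28%, highest in the library with the highest Trim30a, and the part of this in the IFNγ change was not tested.

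Trim30d, a close copy of Trim30a, had the same order in B16F10, with means of 2.32 ± 0.60, 19.0 ± 1.6 and 49.0 ± 3.4 CPM with vehicle, IFNγ and IFNβ. In 6694c2 its libraries were at 0.35, 0.0 and 0.244 CPM with vehicle, 0.611, 0.307 and 0.204 CPM with IFNγ, and 20.7 ± 0.85 CPM with IFNβ. The vehicle and IFNγ libraries overlapped, with a log2 fold change of 0.84 ± 0.57 that missed the threshold (adjusted p = 0.433), while IFNβ gave 6.73 ± 0.27 (adjusted p = 6.56e-24). Trim30c was scarce. It had 37 reads over the B16F10 IFNβ libraries and 4 over vehicle (log2 fold change 3.01 ± 0.86, adjusted p = 0.0035), and 246 and 2 reads in 6694c2 (log2 fold change 6.17 ± 0.60, adjusted p = 8.31e-11). With IFNγ, Trim30c passed in neither line, at 15 and 5 reads.

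Trim12a and Trim12c, rodent relatives of Trim5, rose with both interferons in both lines. Trim12c was at 6.08, 4.93 and 4.89 CPM with vehicle, 77.4, 85.1 and 77.0 CPM with IFNγ and 59.9, 51.5 and 61.0 CPM with IFNβ in B16F10. In 6694c2 it was at 0.992, 0.614 and 0.853 CPM, then 14.7, 13.3 and 13.9 CPM, then 68.5, 58.0 and 69.4 CPM. The order of the interferons thus turned between the lines, IFNγ highest in B16F10 and IFNβ highest in 6694c2, without overlap of the groups. The log2 fold changes were 3.92 ± 0.093 and 3.45 ± 0.094 in B16F10 and 4.10 ± 0.17 and 6.35 ± 0.15 in 6694c2 (largest adjusted p = 2.54e-23). Trim12a went from 2.37 ± 0.56 to 45.9 ± 1.5 and 40.1 ± 3.4 CPM in B16F10 and from 1.95 ± 0.29 to 12.5 ± 1.8 and 35.9 ± 3.4 CPM in 6694c2. Trim5 itself stayed low, with its highest mean at 3.35 ± 0.43 CPM in B16F10 with IFNγ, from 0.212 ± 0.20 CPM with vehicle. Trim34a went from 0.942 ± 0.34 to 6.48 ± 0.61 and 7.52 ± 0.41 CPM in B16F10 and from 0.253 ± 0.069 to 6.17 ± 0.045 and 21.3 ± 2.2 CPM in 6694c2. Trim6, whose product makes unanchored ubiquitin chains in type I interferon signalling, was at 0 reads in the B16F10 vehicle and IFNγ libraries, and rose in 6694c2 with IFNβ from 1.52 ± 0.26 to 4.29 ± 0.86 CPM (log2 fold change 1.53 ± 0.24, adjusted p = 2.78e-06).

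**Figure D3:**
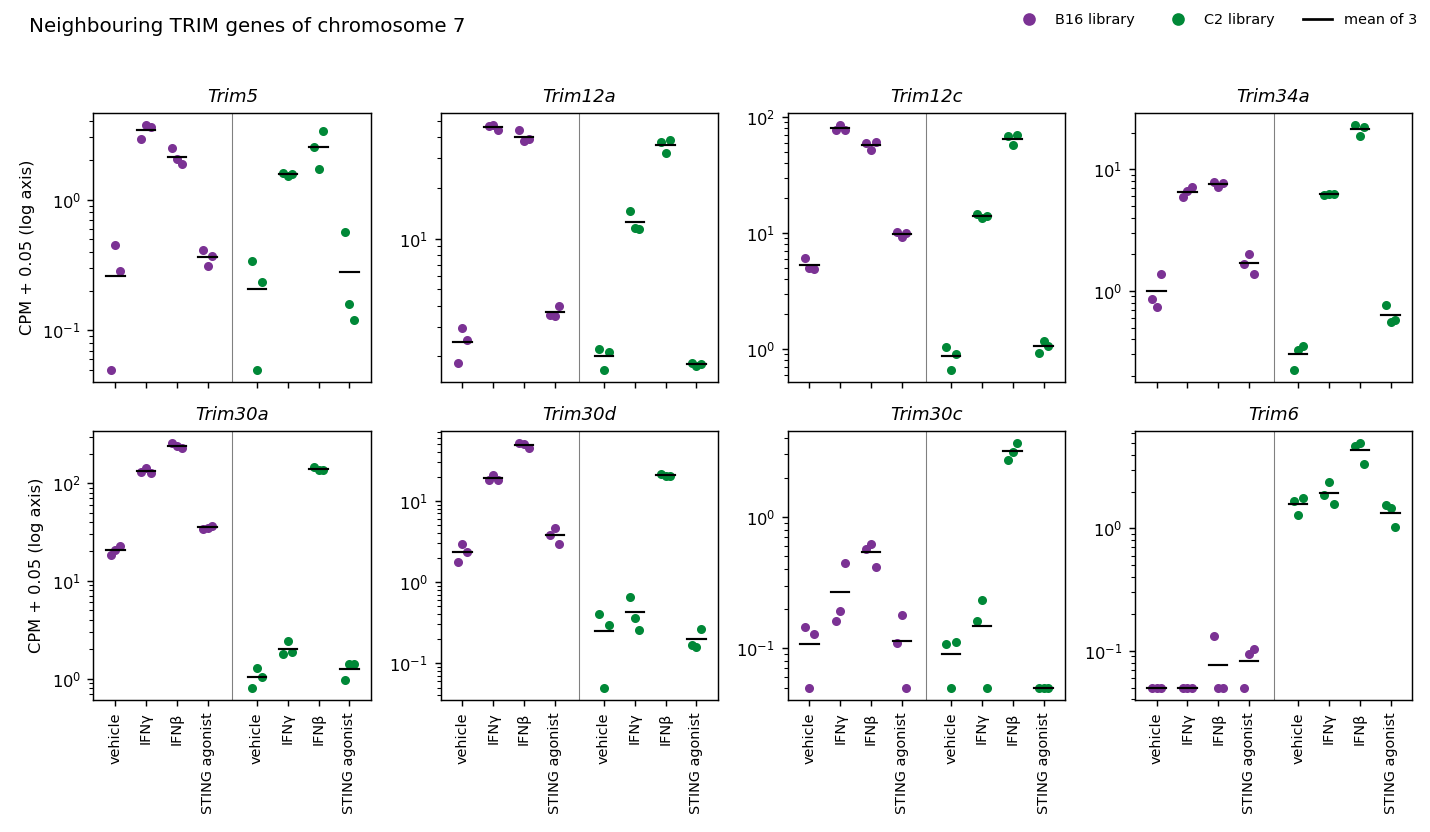
CPM + 0.05 on a log axis in each of the 24 libraries for 8 neighbouring TRIM genes of chromosome 7, by line (B16, B16F10; C2, 6694c2) and treatment, with a black bar at the mean of each group of 3. For Trim30a and Trim30d the C2 points with IFNγ lie near those with vehicle and far below those with IFNβ, whereas in B16 IFNγ and IFNβ both lift the points.

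Among the 15 members listed for roles in sensing of nucleic acids and interferon signalling, IFNγ raised 6 and lowered 2 in B16F10. It raised 5 in 6694c2. IFNβ raised 8 and lowered 1 in B16F10 and raised 6 in 6694c2. Of all genes, 12% rose and 10.8% fell with IFNγ in B16F10, and 12.7% rose and 11.2% fell with IFNβ there. In 6694c2, 7.89% of all genes rose with IFNγ and 10.4% with IFNβ. Median log2 fold changes of the 15 were 0.18, -0.04, 0.24 and 0.19. The order is B16F10 with IFNγ, 6694c2 with IFNγ, B16F10 with IFNβ and 6694c2 with IFNβ. Of the 15, Trim14, Trim21, Trim25, Trim26 and Trim56 rose in all 4 comparisons, and the other 10 passed in 1 line or in none. Trim21 lies on chromosome 7 apart from the 10 neighbours, at positions 102557921 to 102565486. In B16F10 it was at 11.1, 9.99 and 11.9 CPM with vehicle, 82.1, 81.5 and 79.0 CPM with IFNγ, and 78.9, 67.1 and 69.4 CPM with IFNβ. In 6694c2 it was at 1.63, 2.07 and 1.46 CPM with vehicle, 34.1, 37.7 and 32.8 CPM with IFNγ, and 44.3, 49.1 and 42.3 CPM with IFNβ. Every treated library was above every vehicle library, with log2 fold changes of 2.87 ± 0.081 and 2.71 ± 0.081 in B16F10 and 4.34 ± 0.14 and 4.74 ± 0.13 in 6694c2 (largest adjusted p = 6.44e-28).

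Trim25 libraries were at 76.0, 68.8 and 71.0 CPM with vehicle, 151, 164 and 161 CPM with IFNγ, and 430, 427 and 398 CPM with IFNβ in 6694c2. In B16F10 they were at 35.4, 37.1 and 37.9 CPM, then 74.1, 82.4 and 77.8 CPM, then 111, 121 and 106 CPM. The groups did not overlap, and the log2 fold changes were 1.08 ± 0.067 and 1.62 ± 0.067 in B16F10 and 1.16 ± 0.068 and 2.57 ± 0.070 in 6694c2 (largest adjusted p = 7.06e-18). Trim14, an adaptor at mitochondria without a RING finger, was at 2.59 ± 0.24, 4.26 ± 0.66 and 8.02 ± 0.62 CPM with vehicle, IFNγ and IFNβ in B16F10. In 6694c2 it was at 6.89 ± 0.58, 20.9 ± 0.87 and 62.2 ± 2.5 CPM. Of its exon bases, 31.3% lie within Nans on the opposite strand, and whether the counting used strand is not stated, so part of its reads could belong to Nans. Nans itself did not rise, with log2 fold changes from -0.33 to -0.08 in these 4 comparisons.

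Trim26, which lies in the MHC region of chromosome 17, went from 35.3 ± 1.8 to 66.9 ± 3.1 and 101 ± 5.3 CPM in B16F10 and from 35.8, 40.5 and 34.8 CPM to 136 ± 3.9 and 118 ± 3.6 CPM in 6694c2 with IFNγ and IFNβ. With vehicle the difference between the lines did not pass (log2 0.07 ± 0.073, adjusted p = 0.439), and IFNβ exceeded IFNγ in B16F10 (log2 0.60 ± 0.064, adjusted p = 3.96e-17), while in 6694c2 the difference between the interferons did not pass. Trim56 went from 22.6 ± 0.31 to 45.2 ± 1.6 and 33.4 ± 1.1 CPM in B16F10 and from 16.4 ± 3.7 to 49.0 ± 2.7 and 49.8 ± 6.5 CPM in 6694c2. Of the other 10 sensing members, Trim8 rose in 6694c2 with IFNβ (log2 0.38 ± 0.072, adjusted p = 8.29e-05), and Trim35 in B16F10 with IFNβ (log2 0.24 ± 0.055, adjusted p = 0.000188). Trim13 rose in B16F10 with IFNγ (log2 0.39 ± 0.11, adjusted p = 0.00305), a call lost without IFNγ replicate 1 (adjusted p = 0.127). Trim23 and Trim68 rose in B16F10 with IFNβ by log2 0.24 ± 0.083 and 0.71 ± 0.25, calls that were lost without vehicle replicate 1 or IFNβ replicate 1 or with only the 6 libraries compared for Trim23, and without vehicle replicate 2 or 3 or IFNβ replicate 2 or under DESeq2 for Trim68. Trim27 and Trim32 fell in B16F10 and are given with the falls. Trim65 passed in no comparison with vehicle, and the highest group means of Trim31 and Trim38 were 0.093 and 0.174 CPM.

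Trim10, Trim15 and Trim40 of the MHC region rose in 6694c2 with IFNγ and did not pass there with IFNβ. They lie on chromosome 17 with Trim26 and Trim31 between positions 36837134 and 36910214 (GRCm38). Trim10, an erythroid member, had 0 reads in all 3 vehicle libraries of 6694c2 and 23, 24 and 26 reads with IFNγ, or 1.28, 1.47 and 0.884 CPM. Against 3 reads over the vehicle group as a floor, this was 19.7-fold higher (adjusted p = 4.94e-06), and IFNβ gave 5 reads. Trim10 was at 2.39 ± 0.60 CPM in B16F10 vehicle libraries and did not pass there with either interferon, at 190 and 236 reads over the group against 170 with vehicle. The 6694c2 level with IFNγ was 50.8% of the B16F10 vehicle level, beside 0.28% to 0.868% for B16F10-specific transcripts in those libraries. Trim15 went from 5, 7 and 3 reads with vehicle to 27, 33 and 47 with IFNγ in 6694c2 (log2 2.54 ± 0.49, adjusted p = 0.000141), beside 15, 19 and 4 with IFNβ. Trim40 went from 5, 4 and 1 reads to 19, 11 and 26 (log2 2.16 ± 0.59, adjusted p = 0.0077), beside 11, 2 and 4 with IFNβ. Without vehicle replicate 3 the Trim40 call was lost (adjusted p = 0.0626). In B16F10, Trim15 had no more than 11 reads and Trim40 no more than 5 in any group. Set directly against IFNγ in 6694c2, IFNβ gave log2 fold changes of -4.09 ± 0.73, -1.77 ± 0.42 and -2.01 ± 0.53 for Trim10, Trim15 and Trim40 (largest adjusted p = 0.00604).

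**Figure D4:**
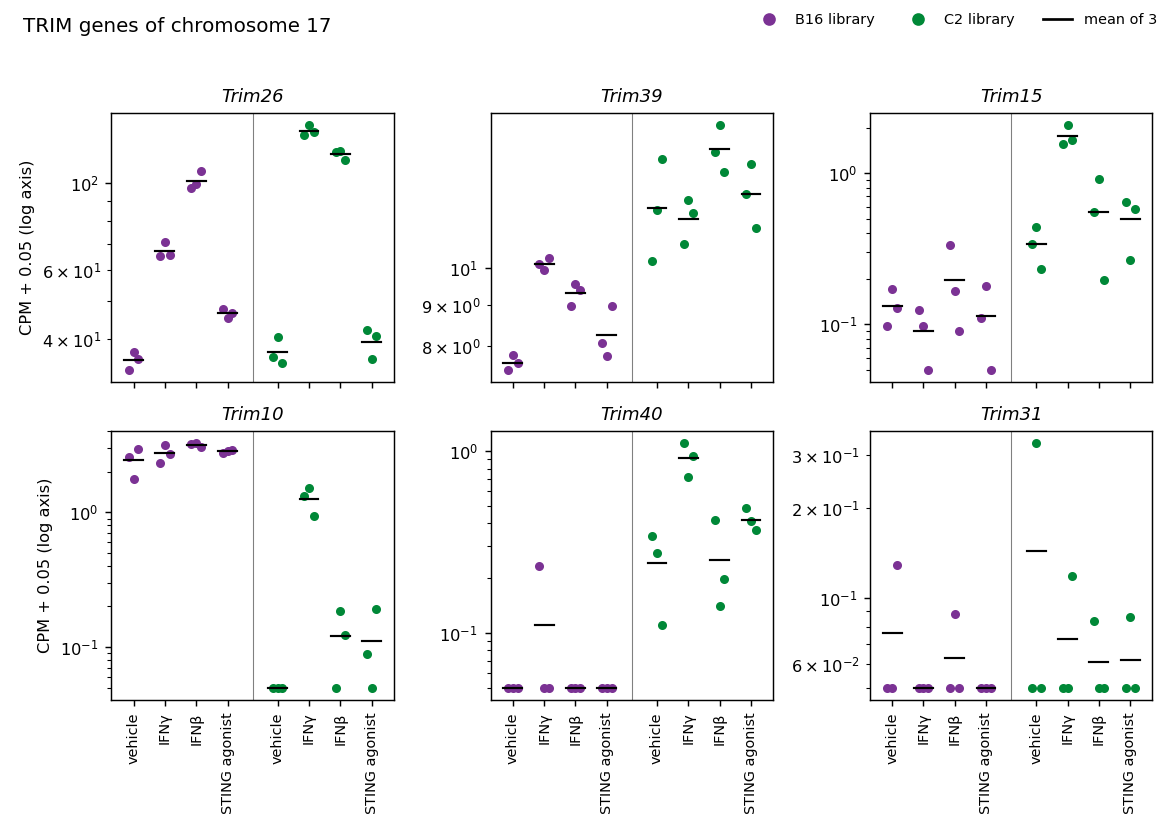
CPM + 0.05 on a log axis in each of the 24 libraries for 6 TRIM genes of chromosome 17, by line (B16, B16F10; C2, 6694c2) and treatment, with a black bar at the mean of each group of 3. Trim26 rises with both interferons in both lines, Trim10, Trim15 and Trim40 are highest among C2 groups with IFNγ, and the Trim31 points rest on 0 to 5 reads per group.

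Falls were less frequent among the members than rises. The 4 chromatin members, Trim24, Trim28, Trim33 and Trim66, had median log2 fold changes of -0.10, -0.04, -0.05 and -0.19 with IFNγ and IFNβ in B16F10 and then in 6694c2. Trim28 was at 406, 415 and 391 CPM with vehicle and at 360, 330 and 362 CPM with IFNγ in B16F10 (log2 -0.21 ± 0.052, adjusted p = 0.000771), while in 6694c2 it was at 431 ± 24, 431 ± 21 and 454 ± 67 CPM with vehicle, IFNγ and IFNβ. Its fall with IFNβ in B16F10 (log2 -0.15 ± 0.052, adjusted p = 0.0195) was lost without vehicle replicate 1 or 2 or IFNβ replicate 1 (highest adjusted p = 0.116). Trim33, a ligase of SMAD signalling, fell in 6694c2 with IFNβ from 121 ± 12 to 100.2 ± 7.4 CPM (adjusted p = 0.0187), a call lost without vehicle replicate 1 or IFNβ replicate 3 or with only the 6 libraries compared. Trim24 passed in no comparison with vehicle. Trim66 had no more than 18 reads in any group.

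In B16F10 the 3 largest falls with IFNγ were those of Trim16, Trim62 and Trim63. Trim63, the muscle atrophy ligase MuRF1, was at 48.3, 44.5 and 42.9 CPM with vehicle and 34.0 ± 2.7 CPM with IFNγ, without overlap (log2 -0.41 ± 0.075, adjusted p = 1.13e-06). Trim62 went from 25.3 ± 3.2 to 18.8 ± 1.2 CPM (log2 -0.42 ± 0.089, adjusted p = 3.27e-05). The fall of Trim16 (log2 -0.45 ± 0.17, adjusted p = 0.0396) had overlapping groups and was lost without vehicle replicate 1 or 3, without IFNγ replicate 1 or 3, under DESeq2 and without a filter (highest adjusted p = 0.392). Trim32 fell by 0.31 and Trim27 by 0.23 on the log2 scale with IFNγ, the latter lost without IFNγ replicate 2 (adjusted p = 0.115). With IFNβ, the 3 largest falls in B16F10 were those of Trim36, Trim27 and Trim63. Trim36, which binds microtubules, went from 1.24, 1.04 and 0.90 CPM to 0.928, 0.192 and 0.364 CPM, with overlapping groups (log2 -1.09 ± 0.42, adjusted p = 0.0401), and missed the threshold in 6 of 13 alternatives. Trim27 fell from 68.0 ± 1.1 to 54.6 ± 4.0 CPM (log2 -0.31 ± 0.067, adjusted p = 5.86e-05). Trim63 was at 38.4 ± 2.2 CPM with IFNβ (log2 -0.23 ± 0.074, adjusted p = 0.0123), a fall lost without vehicle replicate 1 or IFNβ replicate 2 (highest adjusted p = 0.112).

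In 6694c2, Trim2 and Trim37 fell with IFNγ, and both fell with IFNβ along with Trim3, Trim29 and Trim33. Trim2, an NHL-repeat ligase of neurofilament light chain, was at 58.7, 49.3 and 46.8 CPM with vehicle, 36.1, 38.3 and 33.7 CPM with IFNγ and 29.2 ± 3.6 CPM with IFNβ. Neither treated group overlapped vehicle, and the log2 fold changes were -0.51 ± 0.089 (adjusted p = 2.79e-05) and -0.79 ± 0.089 (adjusted p = 2.25e-09). In B16F10, Trim2 was at 37.2 ± 2.0, 38.4 ± 2.8 and 36.5 ± 1.9 CPM with vehicle, IFNγ and IFNβ. Trim37, a centrosome ligase, fell with IFNβ in 6694c2 from 129 ± 5.0 to 103 ± 8.2 CPM (adjusted p = 0.00176), and its fall with IFNγ (log2 -0.22 ± 0.070, adjusted p = 0.0317) was lost without vehicle replicate 1 or 3 or IFNγ replicate 1 or 3. Trim29 fell in 6694c2 with IFNβ from 1.26 ± 0.41 to 0.543 ± 0.24 CPM with overlapping groups (log2 -1.14 ± 0.36, adjusted p = 0.0209), and Trim3 from 18.5 ± 0.91 to 14.6 ± 0.86 CPM (adjusted p = 0.0187). The Trim29 call was lost without vehicle replicate 1 or 3 or IFNβ replicate 3 (highest adjusted p = 0.124), and the Trim3 call without vehicle replicate 2, without IFNβ replicate 1 or 2 or with only the 6 libraries compared (highest adjusted p = 0.102). Of the 4 members listed as muscle ligases, Trim63 fell with each interferon in B16F10. Trim54, Trim55 and Trim72 passed in none, but they had only 13, 15 and 51 reads over all 24 libraries. Of the 4 microtubule members, Trim36 fell as given, and Trim46 rose in 6694c2 with IFNγ and IFNβ, by log2 0.50 ± 0.14 and 0.53 ± 0.14, the first lost without IFNγ replicate 3 (adjusted p = 0.153). Krtcap2 overlaps 6.3% of the Trim46 exon bases on the opposite strand and did not pass in these comparisons in 6694c2.

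With STING agonist, 8 members rose and 2 fell in B16F10, where 1.93% of all genes rose and 1.53% fell. The 8 were Trim12a, Trim12c, Trim21, Trim25, Trim26, Trim30a, Trim30d and Trim56. The vehicle libraries are those of the interferon comparisons. Trim30a was at 34.1, 34.8 and 36.5 CPM against 18.3, 20.5 and 22.9 CPM with vehicle (log2 0.76 ± 0.073, adjusted p = 2.7e-20). Trim12c was at 10.1, 9.14 and 10.0 CPM against 6.08, 4.93 and 4.89 CPM (log2 0.88 ± 0.11, adjusted p = 2.67e-11). None of the 8 passed 2-fold, and the other log2 fold changes were 0.32 for Trim25, 0.35 for Trim56, 0.39 for Trim26, 0.49 for Trim21, 0.57 for Trim12a and 0.67 for Trim30d. The Trim12a call was lost without vehicle replicate 1, without STING agonist replicate 3 or with only the 6 libraries compared (highest adjusted p = 0.296), and the Trim30d call without vehicle replicate 1 or STING agonist replicate 2 (highest adjusted p = 0.25). The 2 that fell were Trim27 (log2 -0.23 ± 0.067, adjusted p = 0.0229) and Trim28 (log2 -0.20 ± 0.053, adjusted p = 0.00883). Leaving out any 1 of the 6 libraries lost the Trim27 call, as did DESeq2 and a stricter minimum count, and leaving out vehicle replicate 2 or STING agonist replicate 2 or 3 lost that of Trim28. In the same B16F10 libraries, 6694c2-specific transcripts were at 0.95% to 1.18% of their 6694c2 level, while Trim30a and Trim12c were at 0.987 and 0.82 CPM in 6694c2 vehicle libraries. When genes with a 6694c2 level above 10 times that of B16F10 were left out of the fit, 8 members rose and 1, Trim28, fell.

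In 6694c2 no member passed with STING agonist by edgeR or by DESeq2, in a comparison where 0.203% of all genes rose and 0.156% fell. Unadjusted p-values under 0.05 were found for 5 members up, Trim8, Trim14, Trim34a, Trim46 and Trim47, and 1 down, Trim63. The shares of all genes just given are for adjusted p-values. No share at the unadjusted threshold was set beside these members, so their number gives no measure of excess. Trim34a was at 0.709, 0.505 and 0.528 CPM against 0.175, 0.279 and 0.305 CPM with vehicle, above it in 3 of 3 libraries (log2 1.18, adjusted p = 0.309). Trim14 was at 9.14, 7.24 and 10.9 CPM against 6.89 ± 0.58 CPM (adjusted p = 0.231), with overlapping groups, and passed without STING agonist replicate 2. Trim63 had 4 reads against 11, while B16F10-specific transcripts in these libraries went from 0.513% to 0.59% with vehicle to 0.218% to 0.306%, and Trim63 was at 45.2 ± 2.8 CPM in B16F10, and their part in the Trim63 value was not tested. The effects of STING agonist on the members were also compared between the lines, and none differed with an adjusted p under 0.05 by edgeR and 1, Trim25, by DESeq2, where 0.568% of all genes had a larger effect in 6694c2 and 1.56% a smaller one. At an unadjusted p under 0.05, 5 members had a larger effect in 6694c2 and 8 a smaller one. The 8 included Trim25 (adjusted p = 0.0895) and Trim26 (adjusted p = 0.121). No share of all genes at this unadjusted threshold was set beside the 5 and the 8, so they give no measure of excess.

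IFNβ and IFNγ were compared directly, at the single dose of each, whose units differ. In B16F10, 11 members were higher with IFNβ and 2 lower, where 6.65% of all genes were higher and 7.85% lower. In 6694c2, 12 were higher with IFNβ and 6 lower, with 7.3% and 6.57% of all genes. Trim30d was the single member over 2-fold higher with IFNβ in B16F10 (log2 1.38 ± 0.090, adjusted p = 3.66e-40), and 9 members were in 6694c2. These 9 were led by Trim30a (log2 6.18 ± 0.12), Trim30d (5.89 ± 0.24) and Trim30c (5.21 ± 0.51), followed by Trim12c (2.24), Trim34a (1.81), Trim14 (1.59), Trim12a (1.55), Trim25 (1.42) and Trim6 (1.22). In B16F10, Trim12c (log2 -0.46 ± 0.071, adjusted p = 6.41e-09) and Trim56 (log2 -0.43 ± 0.076, adjusted p = 1.12e-06) were lower with IFNβ. Trim7 and Trim11 are named after their values were seen. Trim7 was higher with IFNβ in B16F10, at 12.6 ± 0.81 against 7.58 ± 1.1 CPM (log2 0.75 ± 0.12, adjusted p = 3.43e-08). Trim11 fell with IFNγ and rose with IFNβ there, at 19.2 ± 0.47 and 28.2 ± 1.0 CPM against 22.7 ± 1.9 CPM with vehicle, and the direct difference was log2 0.57 ± 0.087 (adjusted p = 7.36e-09). The fall of Trim11 with IFNγ was lost without vehicle replicate 1 or 2 or any 1 IFNγ replicate (highest adjusted p = 0.241).

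The response to each interferon was compared between the lines by testing the difference of the fold changes over all 24 libraries. With IFNγ, 8 members had a larger effect in 6694c2 and 4 a smaller one, where 4.52% and 4.95% of all genes did. With IFNβ, 10 had a larger and 4 a smaller effect in 6694c2, where 6.16% and 5.9% of all genes did. Trim30a differed in opposite directions, with a smaller IFNγ effect in 6694c2 (log2 -1.73 ± 0.27, adjusted p = 1.3e-05) and a larger IFNβ effect (3.58 ± 0.18, adjusted p = 5.65e-19). Trim12a had a smaller IFNγ effect in 6694c2 (-1.58 ± 0.23, adjusted p = 3.22e-06), and its IFNβ effects were 4.07 and 4.24. Trim34a and Trim21 had larger effects in 6694c2 with both interferons, by log2 1.82 ± 0.41 and 1.45 ± 0.17 with IFNγ and by 3.39 ± 0.39 and 2.00 ± 0.17 with IFNβ. Trim14 and Trim56 did as well, by 0.90 and 0.58 with IFNγ and 1.55 and 1.04 with IFNβ. Trim12c (2.87 ± 0.22), Trim30d (2.31 ± 0.46) and Trim25 (0.92 ± 0.090) had larger effects in 6694c2 with IFNβ, and Trim26 with IFNγ (0.95 ± 0.099). Trim68 had a smaller IFNβ effect in 6694c2 (-1.13 ± 0.28, adjusted p = 0.00472), at 4.10 ± 0.52 CPM against 5.45 ± 0.70 CPM with vehicle there and 2.54 ± 0.043 against 1.58 ± 0.51 CPM in B16F10. These folds started from unequal levels: with vehicle Trim30a, Trim30d, Trim12c, Trim21 and Trim34a differed in 6694c2 from B16F10 by log2 -4.37, -3.56, -2.68, -2.67 and -1.89.

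**Figure D5:**
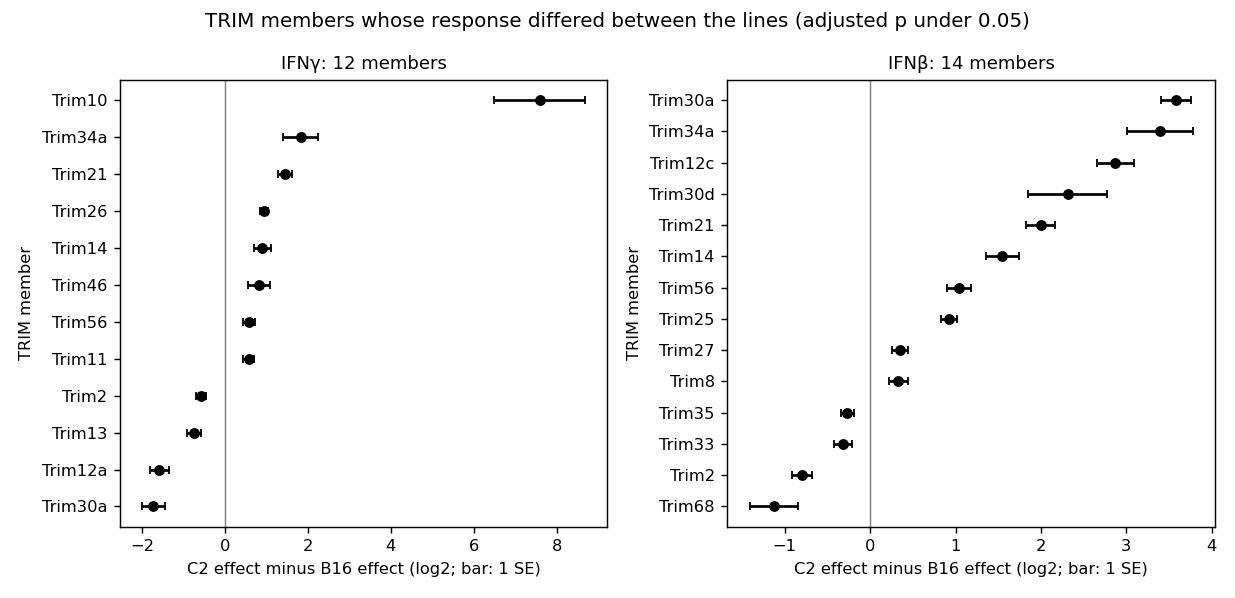
TRIM members whose response to IFNγ (left, 12 members) or IFNβ (right, 14 members) differed between the lines, as the log2 effect in C2 (6694c2) minus that in B16 (B16F10), with bars of 1 SE. Trim30a is the lowest with IFNγ (-1.73) and the highest with IFNβ (3.58), and the fitted Trim10 value (7.59) rests on a vehicle group with 0 reads.

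Without treatment the lines themselves differed widely. With vehicle, 18 members (29.5%) were higher in 6694c2 and 19 (31.1%) in B16F10. These shares were near those of all genes, of which 28.7% were higher in 6694c2 and 29.3% lower. Trim47 was at 68.4, 63.8 and 65.4 CPM in 6694c2 and at 0.239, 0.16 and 0.156 CPM in B16F10 (log2 8.46 ± 0.16, adjusted p = 1.09e-35), and its B16F10 level was 0.281% of that in 6694c2, beside 0.19% to 0.259% for other 6694c2-specific transcripts there. Trim6 and Trim40 were at 0 reads in B16F10. Against a floor of 3 reads over that group, Trim6 was 36.1-fold and Trim40 4.63-fold higher in 6694c2, the latter on 10 reads. On the other side, Trim63 was at 45.2 ± 2.8 CPM in B16F10 and 0.218 ± 0.13 CPM in 6694c2, or 0.481% of the B16F10 level, beside 0.513% to 0.59% for other B16F10-specific transcripts in those libraries. Trim62 was at 25.3 ± 3.2 and 0.291 ± 0.054 CPM. Trim10, at 0 reads in 6694c2, was 40.8-fold higher in B16F10 against the same floor. Trim59 differed by log2 3.44 ± 0.079 and Trim44 by -1.92 ± 0.079 (6694c2 against B16F10). Among these 37 members, Trim17 and Trim67 had groups that overlapped.

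Related genes outside the symbol rule were counted for context. Of 5 genes of TRIM structure with other symbols, Pml, Mid1, Mid2, Mefv and Cmya5, 1 rose in B16F10 with each interferon, and 2 with IFNγ and 1 with IFNβ rose in 6694c2. Pml, the scaffold of nuclear bodies, had log2 fold changes of 1.17 and 1.65 in B16F10 and 0.93 and 1.83 in 6694c2 with IFNγ and IFNβ. Of 11 tested partners in RNA and DNA sensing (12 were listed), 8 rose and 1 fell with IFNγ in B16F10, and 8 rose with IFNβ. In 6694c2, 7 and 6 of the 11 rose. With STING agonist, 5 of the 11 rose in B16F10 and none passed in 6694c2. Beside both sets, 12% of all genes rose and 10.8% fell with IFNγ in B16F10, and 12.7% rose with IFNβ. In 6694c2, 7.89% and 10.4% of all genes rose with IFNγ and IFNβ. With STING agonist, 1.93% of all genes rose in B16F10. Isg15, a ubiquitin-like protein, rose by log2 2.86 and 3.88 in B16F10 and 4.89 and 8.60 in 6694c2 with IFNγ and IFNβ, and Zc3hav1, which binds viral RNA, by 0.88, 1.11, 0.74 and 1.71. The RNA sensors Ddx58 and Ifih1 rose by log2 1.84 and 2.15 with IFNγ and 2.42 and 2.86 with IFNβ in B16F10, and by 3.51, 3.03, 5.66 and 5.62 in 6694c2. Rnf135, the ligase that acts on RIG-I beside Trim25, was at 10.9 ± 0.12 CPM with vehicle, 14.3 ± 1.3 CPM with IFNγ and 55.2 ± 4.3 CPM with IFNβ in 6694c2, and at 10.1 ± 1.0, 53.1 ± 0.90 and 52.1 ± 2.9 CPM in B16F10. Its IFNγ effect in 6694c2 minus that in B16F10 was log2 -1.98 (adjusted p = 7.09e-15). Tmem173, which encodes STING, was at 1.92 ± 0.50 CPM in 6694c2 and 28.8 ± 0.69 CPM in B16F10 with vehicle, and rose in 6694c2 with IFNγ to 6.94 ± 0.28 CPM.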

How the data were processed

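Bulk RNA of the 24 libraries was read as polyA-selected, paired-end sequence. The counts deposited by the authors are whole reads per gene, made with cutadapt 1.14, STAR 2.7.9a and Rsubread on mm10, per the study's methods and the submitters' processing notes. The annotation release, strand setting and treatment of reads matching several genes are not given in the sources used here. Gene coordinates equalled GENCODE release M21 for 91.4% of 49056 shared genes and for 56 of the 61 members. Reads on genes numbered 15543131 to 32266795 per library, so members with few reads have wide errors. All 24 pairs of replicates differed beyond counting noise (chi-square over degrees of freedom 2.99 to 20.45), and each library counted once. No per-sample column was left unmapped, and single-cell samples of the series were not analysed here.

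Genes with at least 10 reads over the 24 libraries entered the fits, a minimum the study also used. They were tested with edgeR 4.0.16 (quasi-likelihood, TMM) within each line over 12 libraries, and over 24 libraries for differences between lines. The Benjamini-Hochberg threshold was 0.05, DESeq2 1.42.0 was an alternative, and R 4.3.3, limma 3.58.1, Python 3.11.15, pandas 2.3.3 and numpy 2.4.6 were used. SE was the absolute log2 fold change divided by the square root of F. A group at 0 reads was given a floor of 3 reads over the group. The floor covers counting error only, and only that of the group at 0 reads. The script was tested on simulated data. Alternatives were RLE factors, other minimum counts, a robust fit, a replicate block, only the 6 libraries compared, and each library left out.

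Members and lists were chosen with earlier results of these data known. Members named with values were the chromosome 7 relatives of Trim5 and Trim30, the sensing and chromatin lists, members called over 2-fold with an interferon, members called with STING agonist, the 3 largest falls per interferon comparison, the 3 highest per length in each line, members called over 2-fold between interferons or over log2 1 between lines, and the 3 largest differences each way with vehicle. Others are said to be named after their values were seen. Some items of the genotype and marker lists are not reported here.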

Additional observations from a re-analysis of the deposited data

Results flagged for a closer look

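The test of the difference between the lines over all 24 libraries singled out 12 members with IFNγ and 14 with IFNβ, each value being the log2 effect in 6694c2 minus that in B16F10. With IFNγ, the differences were 7.59 for Trim10, 1.82 for Trim34a, 1.45 for Trim21, 0.95 for Trim26 and 0.90 for Trim14. The Trim10 value rests on a 6694c2 vehicle group with 0 reads and depends on the prior count. Smaller ones were 0.83 for Trim46, 0.58 for Trim56 and 0.57 for Trim11, and the Trim46 difference missed the threshold in 13 of 18 alternatives. Below 0 were Trim30a at -1.73, Trim12a at -1.58, Trim13 at -0.76 and Trim2 at -0.57.

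With IFNβ, the differences were 3.58 for Trim30a, 3.39 for Trim34a, 2.87 for Trim12c, 2.31 for Trim30d, 2.00 for Trim21, 1.55 for Trim14, 1.04 for Trim56 and 0.92 for Trim25. Trim27 at 0.36 and Trim8 at 0.33 were the smallest above 0, the latter lost in 4 of 18 alternatives. Below 0 were Trim68 at -1.13, Trim2 at -0.80, Trim33 at -0.32 and Trim35 at -0.27, and the Trim33 and Trim35 differences were lost in 7 and 4 of 18 alternatives.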

How the results depend on the processing

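The 12 comparisons gave 187 calls, each of 1 member in 1 comparison, and 148 of them held under every alternative run for them. The other 39 were lost under at least 1, most often where a library was left out, and none reversed. Among counts of members, the falls with STING agonist in B16F10 went from 2 to 1 under the filterByExpr minimum, to 1 under DESeq2 and to 1 without genes that are over 10 times as high in 6694c2. The falls with IFNβ in 6694c2 went from 5 to 3 with only the 6 libraries compared, and the smaller STING agonist effects in 6694c2 from 0 to 1 under DESeq2. Without 1 library at a time, falls ranged from 1 to 4 with IFNβ and from 0 to 1 with STING agonist in B16F10, and from 1 to 2 with IFNγ and 3 to 6 with IFNβ in 6694c2. Members lower with IFNβ than with IFNγ ranged from 2 to 6 in B16F10 and from 3 to 6 in 6694c2, smaller IFNβ effects in 6694c2 from 2 to 5, and rises with STING agonist in 6694c2 from 0 to 1. The falls with IFNβ in B16F10 were 1 without vehicle replicate 1 and 2 without vehicle replicate 2 or IFNβ replicate 2. The filterByExpr minimum gave no value for Trim30c with IFNβ in B16F10 or for Trim17 and Trim50 between the lines. Members under 10 reads in both groups of a comparison could hardly show a change at this depth.

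Replicate numbers did not pair the samples: same-numbered libraries had correlations of deviations from -0.146 to 0.185 in B16F10 and from -0.276 to 0.243 in 6694c2. With the replicate block, 14 members rose and 8 fell with IFNγ and 19 and 4 with IFNβ in B16F10, and 15 and 2, then 17 and 5, in 6694c2. Of 188 values, 186 kept their side of the threshold with the block, and Trim17 and Trim35 between the vehicle groups did not.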
